A study of Mus musculus with 48 samples.

Results

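The genes described here are 10 markers of astrocytes, the star-shaped support cells of brain, and of Mueller glia, the radial support cells that span the retina. They were taken as the listed symbols Gfap, S100b, Slc1a2, Slc1a3, Aldh1l1, Gja1, Glul, Gpr37l1, Fam107a and Rlbp1, and all 10 were found by Ensembl identifier among the 22055 genes listed. RNA-seq of polyadenylated RNA measures messenger level, and Ribo-seq counts the fragments shielded by ribosomes (footprints). Both assays covered 6 organs (brain, retina, lung, liver, kidney and heart). The mice were C57BL/6 without mutation, taken on embryonic day 15.5 (E15.5) or on day 42 after birth (P42). The 24 combinations of tissue, stage and assay have 2 biological replicates each, 48 libraries in all, and no group carries an altered allele or a treatment. Sex, and how many animals went into a library, are not stated in the labels. Values are the deposited TPM (transcript abundance relative to the library total). TPM is by definition a per-length scale, but the gene lengths used were not stated, so levels set side by side between genes rest on that definition.

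Astrocytes and Mueller glia clear glutamate released by neurons through the sodium-coupled carriers Slc1a2 (GLT-1) and Slc1a3 (GLAST), and turn it into glutamine with glutamine synthetase (Glul). Both cell types arise from radial progenitors, astrocytes mostly around and after birth and Mueller glia as the last cells born in the retina. Astrocytes are coupled by gap junctions of connexin 43 (Gja1), and Mueller glia hold the retinaldehyde carrier CRALBP (Rlbp1), which serves pigment recycling and is also made in the retinal pigment epithelium. Mouse retina has few astrocytes, which lie in the nerve fibre layer.

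The 250 bases upstream of the annotated start are printed for 3 members that lie at the ends of the patterns below: Gfap, the classical astrocyte gene, Gpr37l1, the member with the widest gap between brain and retina, and Rlbp1, the member that went the other way. They are from RefSeq for GRCm38.p6 and are written 5′ to 3′ along the gene, in lower case, with capitals for a match to the TATA box on either strand.
Gfap, minus strand, chr11:102897201-102897450: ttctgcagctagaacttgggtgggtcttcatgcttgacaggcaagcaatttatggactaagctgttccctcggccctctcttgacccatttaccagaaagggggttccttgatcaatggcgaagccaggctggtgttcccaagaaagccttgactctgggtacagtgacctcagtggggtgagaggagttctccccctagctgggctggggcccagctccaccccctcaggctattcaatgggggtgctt
Gpr37l1, minus strand, chr1:135167682-135167931: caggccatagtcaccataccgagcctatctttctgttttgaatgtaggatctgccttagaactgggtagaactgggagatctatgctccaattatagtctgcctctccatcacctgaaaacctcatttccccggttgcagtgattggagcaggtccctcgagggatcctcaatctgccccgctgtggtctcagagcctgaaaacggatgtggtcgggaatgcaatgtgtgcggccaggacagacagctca
Rlbp1, minus strand, chr7:79387028-79387277: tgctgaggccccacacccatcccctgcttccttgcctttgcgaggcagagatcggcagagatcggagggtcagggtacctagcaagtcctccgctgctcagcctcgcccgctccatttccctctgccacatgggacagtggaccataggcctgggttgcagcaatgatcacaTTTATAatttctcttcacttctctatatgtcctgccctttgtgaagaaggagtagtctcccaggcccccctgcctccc

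All 10 members had at least 1 start in that table, 12 windows in all, and 5 motifs were searched on both strands. The TATA box (TATAAA) was found in windows of 2 members, Slc1a3 and Rlbp1, against 12.4% of 32851 promoters. The nuclear factor I half-site (TTGGCA) was found in 2, S100b and Fam107a, against 12.3%. The STAT site (TTCNNNGAA) was found in 1, Slc1a3, against 7.02%, and the SOX letters AACAAT (9.42% of promoters) and the OTX and CRX letters TAATCC (6.25%) in none. The match in Rlbp1 begins 78 bases before the start and reads on the opposite strand. The windows of Gfap and Gpr37l1 held none of the 5, and that of Gfap lies within the gene span of GENCODE M21, which begins further upstream. In that annotation of GRCm38 the 10 genes are protein-coding and lie on 8 chromosomes. Gpr37l1 (chr1:135160234-135167681) and Glul (chr1:153899944-153909723) share chromosome 1, and Gja1 (chr10:56377330-56402513) and S100b (chr10:76253853-76261159) share chromosome 10. Slc1a2 is at chr2:102658659-102790784, Aldh1l1 at chr6:90486427-90600203, Rlbp1 at chr7:79374870-79387048, Gfap at chr11:102887336-102900912, Fam107a at chr14:8296274-8318023 and Slc1a3 at chr15:8634124-8710764.

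Read counts were not analysed and TPM keeps no depth, so the depth of each library is unknown. Replicates of RNA-seq correlated at 0.9868 to 0.9991 and those of Ribo-seq at 0.9764 to 0.9989 (Pearson, log2(TPM + 1), all genes). The listed genes held 48.94% to 93.38% of the total in RNA-seq libraries, lowest in replicate 2 of E15.5 kidney, and 23.14% to 61.13% in Ribo-seq libraries. Differences below are limma estimates on log2(TPM + 1) with their standard error, and a gene was called where the estimate reached 1 in size and the Benjamini-Hochberg adjusted p was under 0.05. The 2 stages are in separate deposited tables, so stage cannot be told apart from table. The median gene shifted between groups on the deposited scale, by -0.60 from E15.5 to P42 in brain RNA-seq and by -1.61 in heart. With median-of-ratios scaling those medians became 0.11 and 0.08. All-gene calls in brain RNA-seq then went from 1694 higher and 5203 lower to 3215 higher and 2153 lower.

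The P42 brain and retina labels were checked on other markers by RNA-seq. Of 10 photoreceptor genes the summed RNA-seq level was 56229 to 60405 TPM in P42 retina and 22.4 to 31.8 TPM in P42 brain. The 14 oligodendrocyte and myelin genes summed to 5471 and 7077 TPM in P42 brain and to 50.3 and 46.8 TPM in P42 retina. At E15.5 the same 14 genes summed to 231 to 270 TPM in brain. The 10 neuron genes summed to 9607 and 11125 TPM in P42 brain and 2820 and 2685 TPM in P42 retina.

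In P42 brain 8 of the 10 glial genes were higher than in P42 retina by RNA-seq, 1 was lower (Rlbp1), and Glul did not pass the test. Across all 14270 genes tested, 17.0% were called higher in brain and 26.3% lower, with a median difference of -0.24, while the members' median was 2.88. The gaps ran from 2.93-fold for Slc1a3 to 153-fold for Gpr37l1, and Rlbp1 was 19.1-fold higher in retina. The footprint counts were the same, 8 higher and 1 lower, against 29.5% and 6.49% of 12780 genes. In whole tissue, fewer cells of a type and less RNA per cell cannot be told apart.

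**Figure D1:**
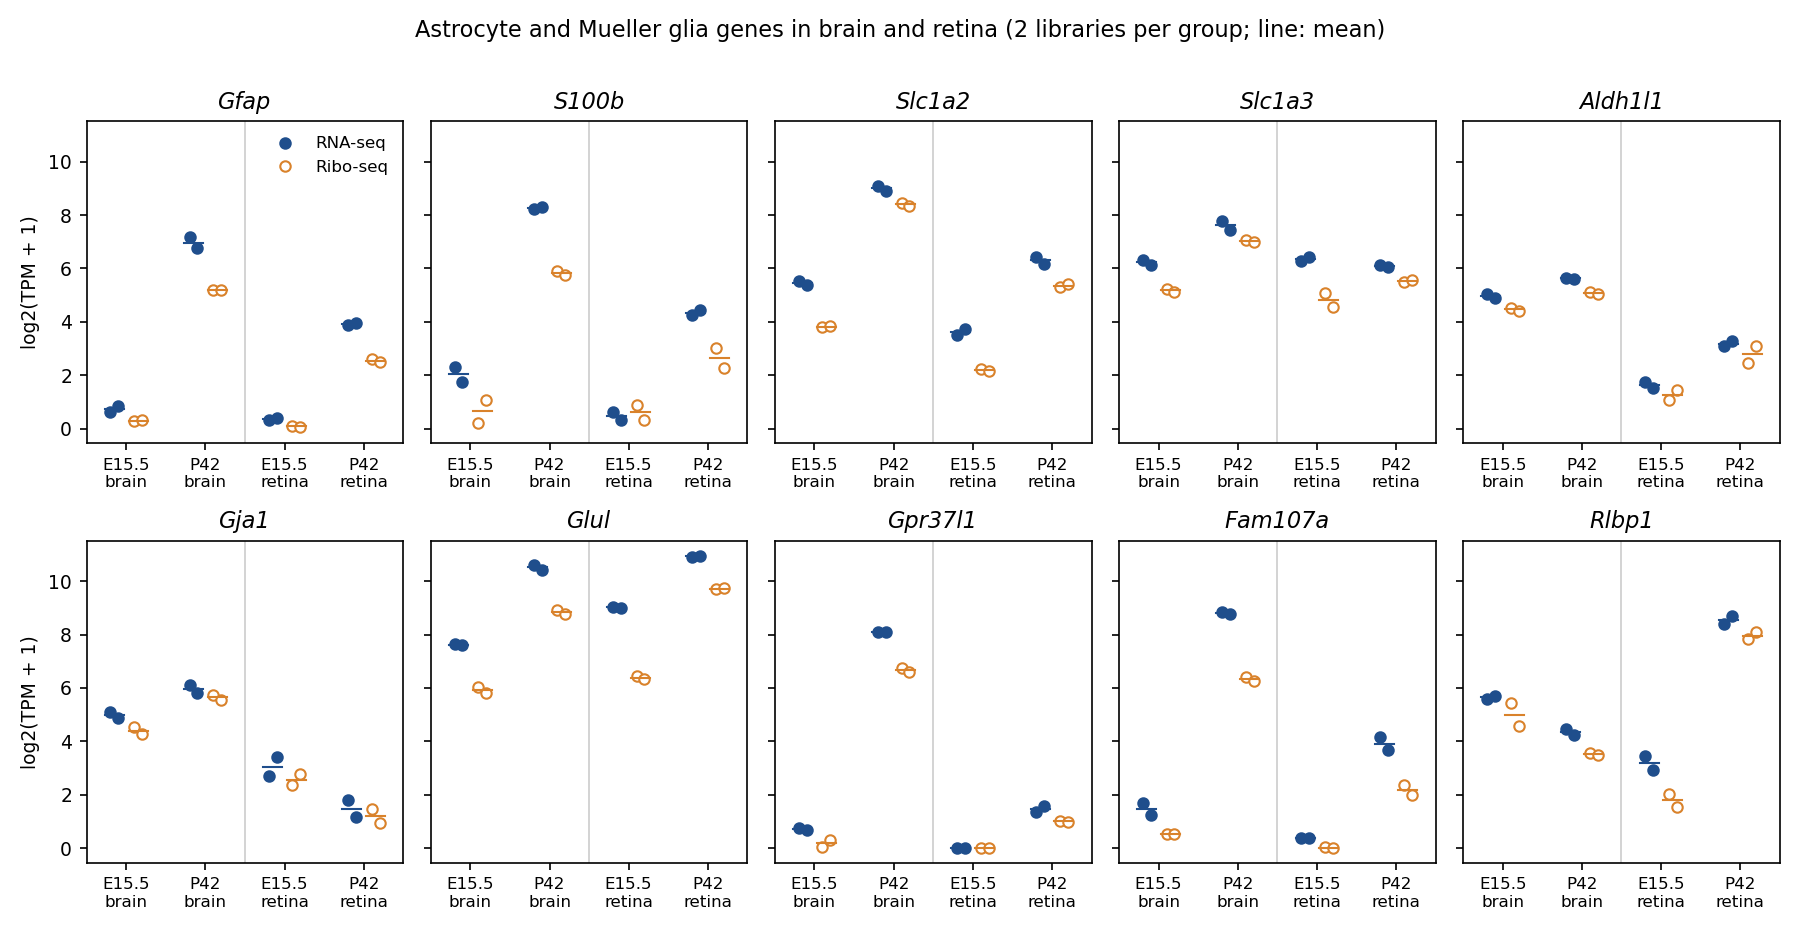
Level of each gene in every brain and retina library as log2(TPM + 1), RNA-seq in filled and Ribo-seq in open circles, with a line at the mean of the 2 libraries of a group. Gpr37l1 is at 0 in both E15.5 retina RNA-seq libraries and at 271 and 272 TPM in P42 brain, and Rlbp1 is highest in P42 retina, at 333 and 413 TPM.

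Gfap encodes the main intermediate filament protein of astrocytes. Its RNA-seq level was 143 and 109 TPM in P42 brain and 13.7 and 14.6 TPM in P42 retina. At E15.5 it was listed at 0.55 and 0.79 TPM in brain and 0.265 and 0.317 TPM in retina. The P42 values of the 2 tissues did not overlap, and all E15.5 values lay under 1 TPM. The P42 brain mean was 8.88-fold that of retina (log2 difference 3.05 ± 0.15, adjusted p = 5.85e-14). Footprints gave 35.6 and 35.8 TPM in P42 brain and 5.03 and 4.63 TPM in P42 retina (2.66 ± 0.13). Between stages Gfap rose in both tissues, by 6.23 ± 0.15 in brain and 3.55 ± 0.15 in retina, and the rise was larger in brain by 2.68 ± 0.22 (adjusted p = 5.97e-10). Both stage differences rest on E15.5 values under the 1 TPM that was added before taking logs.

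S100b is a calcium-binding protein made by astrocytes and by other glia. It stood at 296 and 311 TPM in P42 brain and at 18.1 and 20.5 TPM in P42 retina by RNA-seq. The E15.5 values were 3.94 and 2.37 TPM in brain and 0.553 and 0.265 TPM in retina. At both stages the brain libraries were above the retina libraries without overlap. The difference was 3.91 ± 0.21 at P42 (adjusted p = 1.45e-13) and 1.54 ± 0.21 at E15.5 (adjusted p = 1.29e-06), and the E15.5 call was lost with a pseudocount of 4 TPM (0.69). Footprints were 58.2 and 52.6 TPM in P42 brain and 7.00 and 3.83 TPM in P42 retina. S100b is also made in myelinating cells, whose marker genes were 14 of 14 higher in P42 brain than in P42 retina (17.0% of all genes), and their part in the S100b difference was not tested.

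The pair of glutamate carriers showed different patterns. Slc1a2 RNA-seq was 547 and 481 TPM in P42 brain against 84.9 and 71.6 TPM in P42 retina, a 6.57-fold gap (2.70 ± 0.16, adjusted p = 7.21e-13). At E15.5 it was 44.9 and 40.7 TPM in brain and 10.3 and 12.4 TPM in retina (1.83 ± 0.16). Brain was thus above retina at both stages in every library. Slc1a2 rose with age by 3.55 ± 0.16 in brain and 2.69 ± 0.16 in retina, and the difference of the rises, 0.87 ± 0.22, was below the size required for a call. By footprint that difference was 1.43 ± 0.34 and was called (adjusted p = 0.00294). It was not called with a pseudocount of 0.25 TPM (1.27).

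Slc1a3, also a marker of radial progenitors, was already abundant at E15.5. Its RNA-seq level was 79.2 and 69.1 TPM in E15.5 brain and 77.2 and 85.9 TPM in E15.5 retina, so the 2 tissues overlapped (-0.14 ± 0.21, adjusted p = 0.618). At P42 it was 220 and 171 TPM in brain and 68.4 and 65.6 TPM in retina. Brain rose by 1.38 ± 0.21, while the retina difference between stages was -0.28 ± 0.21 (adjusted p = 0.25). The difference of the 2 changes was 1.66 ± 0.30 (adjusted p = 7.35e-05). By footprint it was 1.14 ± 0.49 and was not called (adjusted p = 0.0788), but it was with median-of-ratios scaling (1.28), with a pseudocount of 4 TPM (1.11) and with brain and retina fitted alone. Footprints of Slc1a3 in brain were 36.7 and 33.8 TPM at E15.5 and 132 and 126 TPM at P42, and those in retina 32.5 and 22.4 TPM and then 43.5 and 46.0 TPM. The P42 footprint difference of 1.51 ± 0.34 became 0.99 when the listed genes were rescaled to an equal sum, just under the size required.

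The ratio of Slc1a2 to Slc1a3 within a library does not depend on how that library was scaled. By RNA-seq it was 0.567 and 0.590 in E15.5 brain, 0.133 and 0.144 in E15.5 retina, 2.48 and 2.80 in P42 brain, and 1.24 and 1.09 in P42 retina. Each tissue moved toward Slc1a2 with age, and at each stage both brain libraries were above both retina libraries. Footprint ratios were 0.353 and 0.393, 0.113 and 0.156, 2.65 and 2.59, and 0.885 and 0.902 in the same order. The P42 retina ratio was thus above 1 by RNA-seq and below 1 by Ribo-seq. The ratios are given as descriptions, with no test. The ratio of Rlbp1 to Glul by RNA-seq went from 0.240 and 0.265 to 0.0136 and 0.0128 in brain, and from 0.0187 and 0.0130 to 0.174 and 0.208 in retina. Gfap to Glul was 0.0909 and 0.0784 in P42 brain and 0.00716 and 0.00733 in P42 retina.

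**Figure D2:**
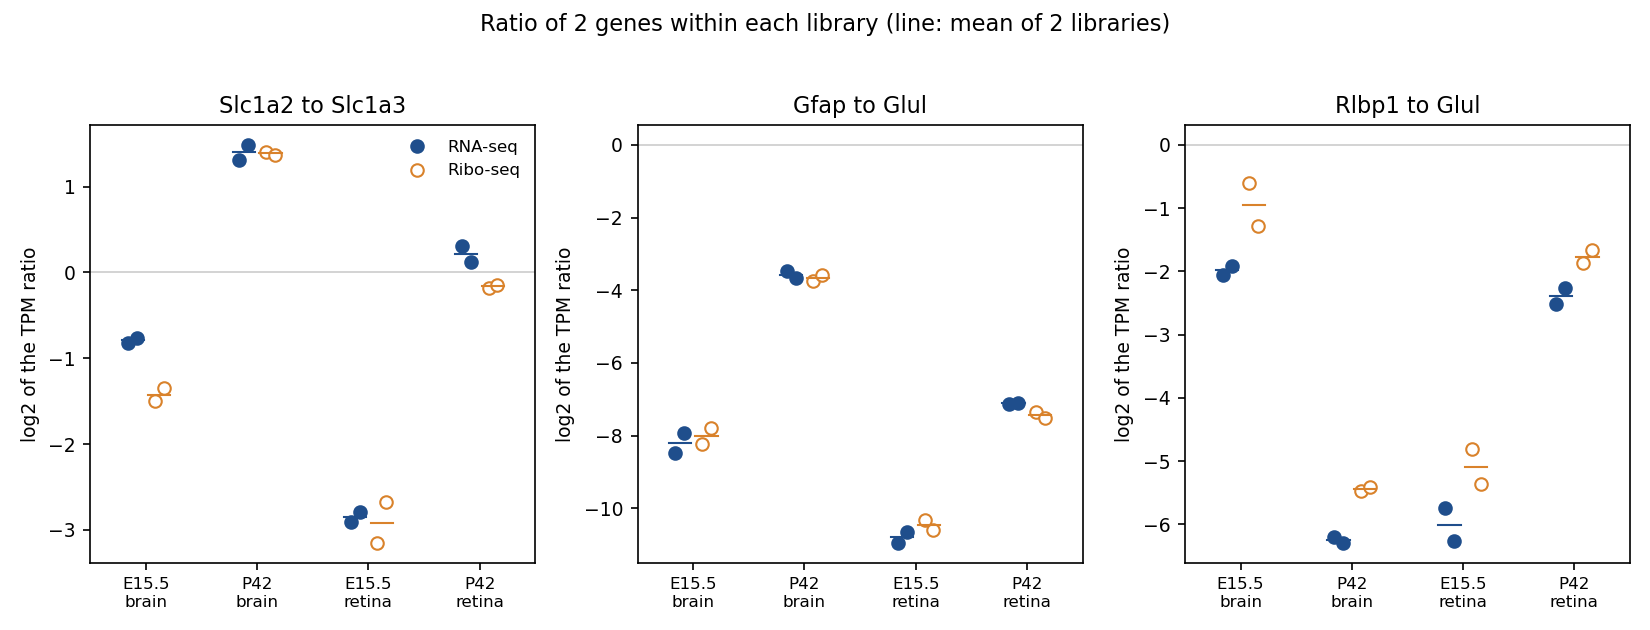
Log2 of the TPM ratio of Slc1a2 to Slc1a3, of Gfap to Glul and of Rlbp1 to Glul in each brain and retina library (RNA-seq filled, Ribo-seq open, line at the mean of 2 libraries). The first ratio goes from 0.567 and 0.590 to 2.48 and 2.80 in brain RNA-seq, and the third falls in brain and climbs in retina with age.

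Glul, glutamine synthetase, was the most abundant member in both tissues. RNA-seq gave 1568 and 1385 TPM in P42 brain and 1914 and 1990 TPM in P42 retina, which was 42.1% to 43.0% of the members' sum in brain and 76.6% to 77.8% in retina. The 2 P42 retina libraries were above the 2 P42 brain libraries, but the difference of -0.41 ± 0.23 did not pass the test (adjusted p = 0.113). At E15.5 Glul was 197 and 193 TPM in brain and 525 and 510 TPM in retina, lower in brain by 1.40 ± 0.23 on the log2 scale (-1.40, adjusted p = 1.41e-05). It rose by 2.91 ± 0.23 in brain and 1.91 ± 0.23 in retina. The difference of these rises, 1.00 ± 0.32, lay at the boundary of a call and passed it when single libraries were left out (1.02 without replicate 1 of E15.5 brain, 1.02 without replicate 2 of E15.5 retina, 1.09 without replicate 2 of P42 brain and 1.03 without replicate 2 of P42 retina).

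Footprints of Glul were 64.9 and 55.0 TPM in E15.5 brain, 85.4 and 79.9 TPM in E15.5 retina, 479 and 431 TPM in P42 brain and 825 and 853 TPM in P42 retina. The P42 difference was -0.88 ± 0.23 (adjusted p = 0.00331), short of the size required. It reached -1.33 with median-of-ratios scaling and -1.41 with an equal sum, and was then called.

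Aldh1l1, a folate enzyme used to mark astrocytes in mouse brain, was 49.5 and 47.7 TPM in P42 brain and 7.51 and 8.68 TPM in P42 retina by RNA-seq. It was 31.6 and 29.0 TPM in E15.5 brain and 2.38 and 1.85 TPM in E15.5 retina, the widest E15.5 gap between the tissues among the members tested, 14.3-fold (3.33 ± 0.18, adjusted p = 5.04e-13). Its change with age in brain, 0.67 ± 0.18, was not called, and became 1.40 and called with median-of-ratios scaling. In retina it rose by 1.55 ± 0.18. The 2 changes differed by -0.88 ± 0.26, not called, with -1.01 and a call without replicate 1 of E15.5 retina. Footprints in P42 retina were 4.55 TPM in replicate 1 and 7.65 TPM in replicate 2. That second library also held 539 TPM over 8 kidney tubule genes, against 1.55 TPM in replicate 1. Kap, Miox, Umod and Slc34a1 stood there at 1.11%, 0.966%, 0.889% and 0.915% of their P42 kidney footprint level. Without it the P42 brain minus retina footprint difference of Aldh1l1 was 2.61 in place of 2.29, and its rise in retina 1.21 in place of 1.53. Without replicate 1 in its place, the difference of the brain and retina changes by footprint was -1.23 and called, against -0.91 with all libraries.

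Gja1, connexin 43, parted between the tissues with age. RNA-seq read 33.2 and 28.5 TPM in E15.5 brain and 68.9 and 55.2 TPM in P42 brain, and 5.49 and 9.61 TPM in E15.5 retina and 2.52 and 1.22 TPM in P42 retina. It fell in retina by 1.57 ± 0.25 on the log2 scale (-1.57, adjusted p = 7.57e-06), though with a pseudocount of 4 TPM the difference was -0.96. In brain the difference between stages was 0.98 ± 0.25, not called. It was called without replicate 1 of E15.5 brain (1.09), without replicate 2 of P42 brain (1.14) and with median-of-ratios scaling (1.72). The changes in the 2 tissues differed by 2.55 ± 0.35 (adjusted p = 2.11e-06). The P42 gap was 33.2-fold by RNA-seq (4.49 ± 0.25) and 37.2-fold by footprint (4.45 ± 0.25). Footprints rose in brain, by 1.24 ± 0.25, and fell in retina by 1.37 ± 0.25 on the log2 scale (-1.37).

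Gpr37l1, an orphan receptor of astrocytes related to Gpr37, had the widest P42 difference of the members. It read 271 and 272 TPM in P42 brain and 1.55 and 2.00 TPM in P42 retina by RNA-seq (6.62 ± 0.11, adjusted p = 6.41e-23). At E15.5 it was 0.681 and 0.587 TPM in brain and listed at 0 in both retina libraries, so no fold is given for retina. In brain it rose by 7.38 ± 0.11, from values under 1 TPM. Footprints were 106 and 96.0 TPM in P42 brain and 1.04 and 0.967 TPM in P42 retina (5.67 ± 0.18). Its relative Gpr37 was the other way round, with 23.2 and 28.5 TPM in P42 brain and 62.4 and 64.3 TPM in P42 retina.

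Fam107a, an actin-associated protein enriched in astrocytes and outer radial glia, read 462 and 437 TPM in P42 brain and 17.1 and 11.7 TPM in P42 retina by RNA-seq (4.90 ± 0.25, adjusted p = 9.5e-14). At E15.5 it read 2.23 and 1.35 TPM in brain and 0.289 and 0.305 TPM in retina. That difference of 1.09 ± 0.25 was called, and was 0.43 and not called with a pseudocount of 4 TPM. Fam107a rose by 7.35 ± 0.25 in brain and 3.54 ± 0.25 in retina, and the rises differed by 3.81 ± 0.36 (adjusted p = 6.83e-09). Footprints were 83.5 and 76.3 TPM in P42 brain and 4.18 and 2.96 TPM in P42 retina.

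Rlbp1 was the member whose order of tissues turned over. At E15.5 RNA-seq gave 47.3 and 51.1 TPM in brain and 9.80 and 6.64 TPM in retina, higher in brain by 2.47 ± 0.18 (adjusted p = 7.98e-11). At P42 it was 21.3 and 17.7 TPM in brain and 333 and 413 TPM in retina (-4.19 ± 0.18, adjusted p = 2.96e-15). No brain and retina libraries overlapped at either stage. It rose 45.4-fold in retina (5.36 ± 0.18) and fell in brain by 1.30 ± 0.18 on the log2 scale (-1.30, adjusted p = 1.17e-06), though in brain the difference was -0.54 and not called with median-of-ratios scaling. The changes differed by -6.65 ± 0.25 (adjusted p = 8.49e-16). Footprints followed the same order, with 42.8 and 22.6 TPM in E15.5 brain, 3.04 and 1.95 TPM in E15.5 retina, 10.8 and 10.1 TPM in P42 brain and 225 and 271 TPM in P42 retina.

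Pigment epithelium also makes Rlbp1, and markers of it were measured beside it. Without Ttr, which choroid plexus makes too, 10 such genes summed to 61.5 and 50.8 TPM in E15.5 retina and 88.7 and 136 TPM in P42 retina by RNA-seq. In brain they summed to 45.7 and 47.1 TPM at E15.5 and to 40.2 and 37.2 TPM at P42. Rpe65, the isomerase of that epithelium, was 14.02 and 30.2 TPM in both P42 retina libraries, in which Rlbp1 was 333 and 413 TPM. Of 11 pigment epithelium genes, 10 could be tested between the stages in retina, 5 rose and 1 fell, against 18.6% and 24.7% of all genes, and their part in the Rlbp1 rise was not tested. In brain, RNA-seq replicates at P42 differed in Ttr, at 4079 and 141 TPM, while Rlbp1 was 21.3 and 17.7 TPM there.

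**Figure D3:**
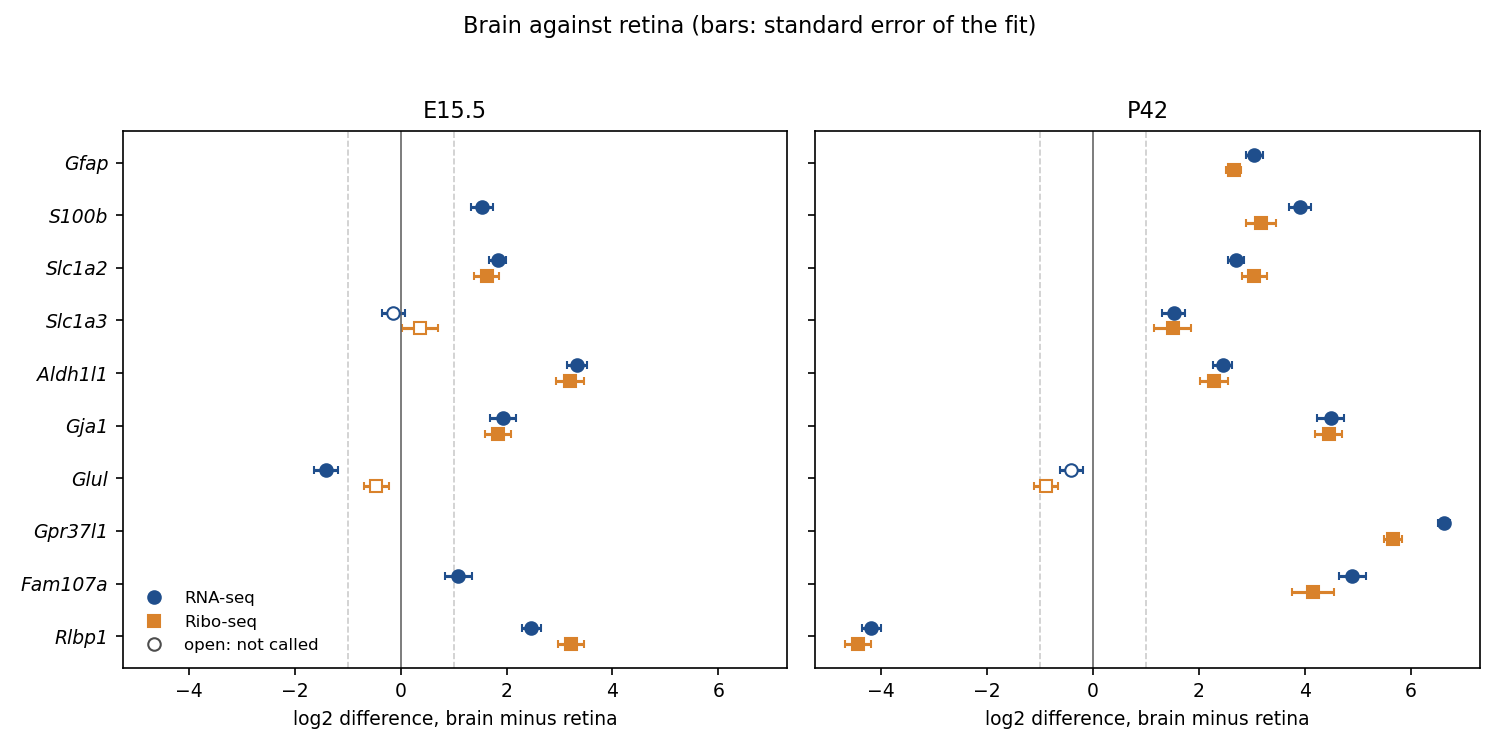
Log2 difference of brain minus retina for each gene tested at E15.5 and P42, RNA-seq in circles and Ribo-seq in squares, bars giving the standard error of the fit and open marks a gene that was not called; dashed lines are at 1 and -1. Rlbp1 is at 2.47 at E15.5 and -4.19 at P42 by RNA-seq, and Gpr37l1 at 6.62 at P42.

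At E15.5, 6 of 8 members tested were higher in brain by RNA-seq and 1 was lower (Glul), against 17.7% and 9.90% of 14176 genes. Gfap and Gpr37l1 were not tested, being under the filter of 1 TPM. S100b and Fam107a had retina means under 1 TPM and passed the filter only through brain, so they could be called only higher in brain. By footprint 4 of 6 were higher and none lower, against 31.1% and 3.72%. Those 4 were Slc1a2 (1.62 ± 0.24), Aldh1l1 (3.20 ± 0.26), Gja1 (1.84 ± 0.25) and Rlbp1 (3.22 ± 0.24). The footprint difference of Glul was -0.46 ± 0.23 (adjusted p = 0.0953), and it became -1.05 and called with median-of-ratios scaling. All genes had a median footprint difference of 0.58 at this stage on the deposited scale, toward brain.

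In brain, 7 of 10 members rose from E15.5 to P42 by RNA-seq and 1 fell, against 11.7% of 14449 genes called higher and 36.0% lower. The count was 9 higher and 0 lower with median-of-ratios scaling, where 3215 of all genes were called higher and 2153 lower. Footprints gave 8 rises and 1 fall, against 20.2% and 17.7% of 13312 genes. In retina 7 of 9 tested rose and 1 fell (Gja1), against 18.6% and 24.7% of 14015 genes. The footprint counts in retina were the same, against 21.3% and 16.2%. By RNA-seq Gfap and Gpr37l1 in brain, and Gfap, S100b and Fam107a in retina, had E15.5 means under 1 TPM. By footprint these were Gfap, S100b, Gpr37l1 and Fam107a in brain, and Gfap, S100b and Fam107a in retina. They passed the filter only through their P42 level, so a rise was the only call possible for them. The summed level of the 10 genes went from 441 and 416 TPM to 3647 and 3286 TPM in brain, and from 631 and 627 TPM to 2461 and 2599 TPM in retina.

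The 2 developmental changes differed for most members. Tested as a difference of changes, 6 of 10 members moved more toward brain by RNA-seq and 1, Rlbp1, toward retina, against 12.9% and 28.2% of 14592 genes. The 6 were Gfap, S100b, Slc1a3, Gja1, Gpr37l1 and Fam107a. Footprints also gave 6 and 1, against 12.8% and 14.4% of 13160 genes, with Slc1a2 among the 6 and Slc1a3 not. By mean TPM, however, Fam107a footprints rose 177-fold in brain and 292-fold in retina, from E15.5 means of 0.452 and 0.0122 TPM. The sign of its footprint difference thus rests on the 1 TPM added before taking logs. Gfap, S100b and Gpr37l1 also had E15.5 retina means under 1 TPM in both assays, so the size of their differences depends on that addition. Glul and Aldh1l1 were called in neither assay.

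**Figure D4:**
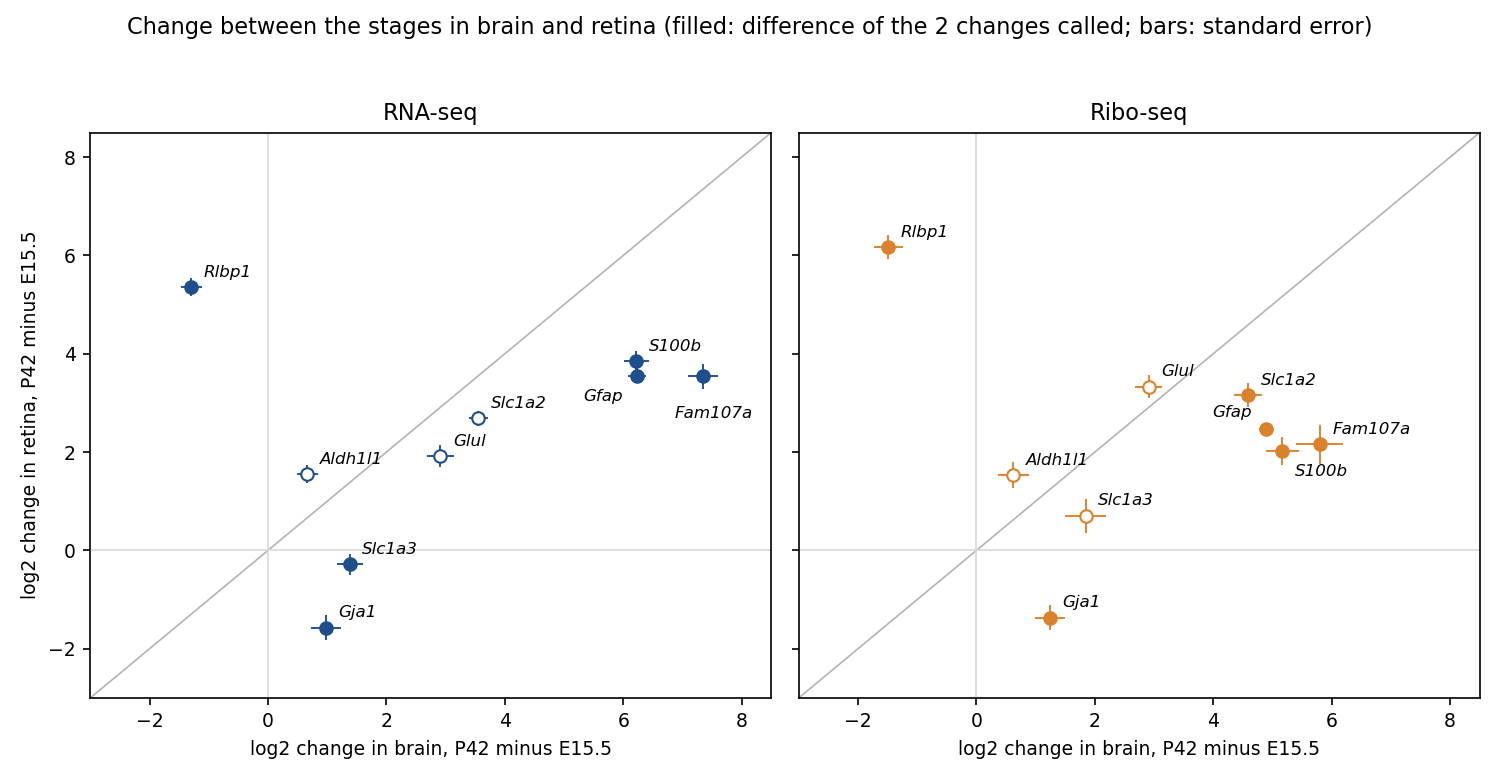
Log2 change from E15.5 to P42 in brain (horizontal) against that in retina (vertical) for 9 genes, with standard errors; Gpr37l1 is left out because it was not tested in retina. Filled marks are genes whose 2 changes differed by the test, and the diagonal marks equal change. Rlbp1 stands alone at upper left (-1.30 in brain and 5.36 in retina by RNA-seq), and Fam107a, Gfap and S100b lie furthest to the right in both panels.

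Other genes of these cells gave a background for the members. Of 31 other astrocyte genes, 22 were higher in P42 brain than in P42 retina by RNA-seq and 0 lower (median 2.07), against 17.0% and 26.3% of all genes. With age 26 rose in brain and 1 fell, against 11.7% and 36.0%, and 20 of 26 tested rose in retina and 1 fell, against 18.6% and 24.7%. The widest P42 gaps between the tissues were those of Acsbg1 (6.98), Ntsr2 (6.84), Gjb6 (6.17) and Slc25a18 (5.26). Gjb6, connexin 30 and the astrocyte partner of Gja1, read 81.5 and 68.3 TPM in P42 brain and 0.0417 and 0.0653 TPM in P42 retina. Aqp4, the water channel of glial endfeet, was 68.3 and 51.4 TPM in P42 brain and 62.0 and 48.2 TPM in P42 retina (0.11 ± 0.33, not called). Kcnj10, the potassium channel Kir4.1, was 166 and 183 TPM in P42 brain and 50.4 and 51.9 TPM in P42 retina (1.75 ± 0.20).

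Of 16 other Mueller glia genes, 2 were higher and 6 lower in P42 brain than in P42 retina by RNA-seq, against 17.0% and 26.3% of all genes. With median-of-ratios scaling 6 were higher and 5 lower. All-gene calls were then 3541 higher and 2250 lower, in place of 2432 and 3759. The genes named next are all on the retina side, and those higher in brain are not named. Abca8a, a lipid transporter of Mueller glia, was 1.29 and 1.19 TPM in P42 brain and 72.5 and 71.8 TPM in P42 retina (-5.03). In the same order Cp, ceruloplasmin, was 4.80 and 3.63 TPM and 45.7 and 41.3 TPM (-3.10). The carbonic anhydrase Car14 was 20.6 and 21.1 TPM and 87.3 and 114 TPM (-2.20). Between stages in retina 7 of the 16 rose and 6 fell, against 18.6% and 24.7%, and Abca8a rose by 6.15, from 0.0238 and 0.0377 TPM. The astrocyte list and the Mueller list share 5 genes, and both were chosen with results of these data known.

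Genes of the radial progenitors from which both glia arise were counted in the same way. Of 12 tested in each tissue by RNA-seq, 10 fell and 0 rose in brain, against 36.0% and 11.7% of all genes, and 9 fell and 2 rose in retina, against 24.7% and 18.6%. With median-of-ratios scaling 7 of 11 tested fell and 0 rose in brain, and 8 of 12 fell and 2 rose in retina. Of all genes 2153 were then called lower and 3215 higher in brain, and 2320 and 2940 in retina. Nes, nestin, fell by 4.88 in brain and by 5.44 in retina on the log2 scale (-4.88 and -5.44), and Fabp7, a lipid carrier of radial glia, by 4.21 and 4.66 (-4.21 and -4.66). Slc1a3, which such progenitors also express, did not fall in either tissue by the test. Rlbp1 was called lower at P42 in brain on the deposited scale, but not with median-of-ratios scaling.

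Among other genes of glutamate and glutamine handling, the widest P42 gaps were toward retina. Slc1a7 (EAAT5), the retinal glutamate transporter, was 159.9 and 155.3 TPM in P42 retina and 0.268 and 0.161 TPM in P42 brain (-7.03). Slc38a3 (SNAT3), which lets glutamine out of glia, was 378 and 330 TPM in P42 retina and 38.4 and 34.5 TPM in P42 brain (-3.24). Over the 15 genes of that list 5 were higher and 3 lower in P42 brain, against 17.0% and 26.3% of all genes. Of 12 genes of reactive glia, 8 were tested at P42, with 2 higher in brain and 3 lower, against the same 17.0% and 26.3%. With median-of-ratios scaling 2 of 7 were higher and 1 lower, where 3541 of all genes were called higher and 2250 lower. Lcn2, which injured astrocytes make, was at 4.62 and 6.37 TPM in P42 retina and 0.468 and 0.386 TPM in P42 brain.

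Outside the nervous system several members stood high. At P42 the top tissue by RNA-seq was brain for 7 members (Gfap, S100b, Slc1a2, Slc1a3, Gja1, Gpr37l1 and Fam107a), retina for Glul and Rlbp1 and liver for Aldh1l1, and the footprint order was the same at the top. At E15.5 brain led for 4 (S100b, Slc1a2, Gpr37l1 and Rlbp1), retina for Slc1a3 and Glul, liver for Gfap and Aldh1l1, heart for Gja1 and kidney for Fam107a. The first and second tissues did not overlap in their 2 libraries, except retina and brain for Slc1a3 at E15.5. By footprint at E15.5, Slc1a3 was highest in brain, without overlap with retina. Glul had nearly the same footprint level in liver (81.4 to 93.2 TPM) and retina (79.9 to 85.4 TPM), which overlapped, and S100b had means under 1 TPM in all 6 tissues.

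**Figure D5:**
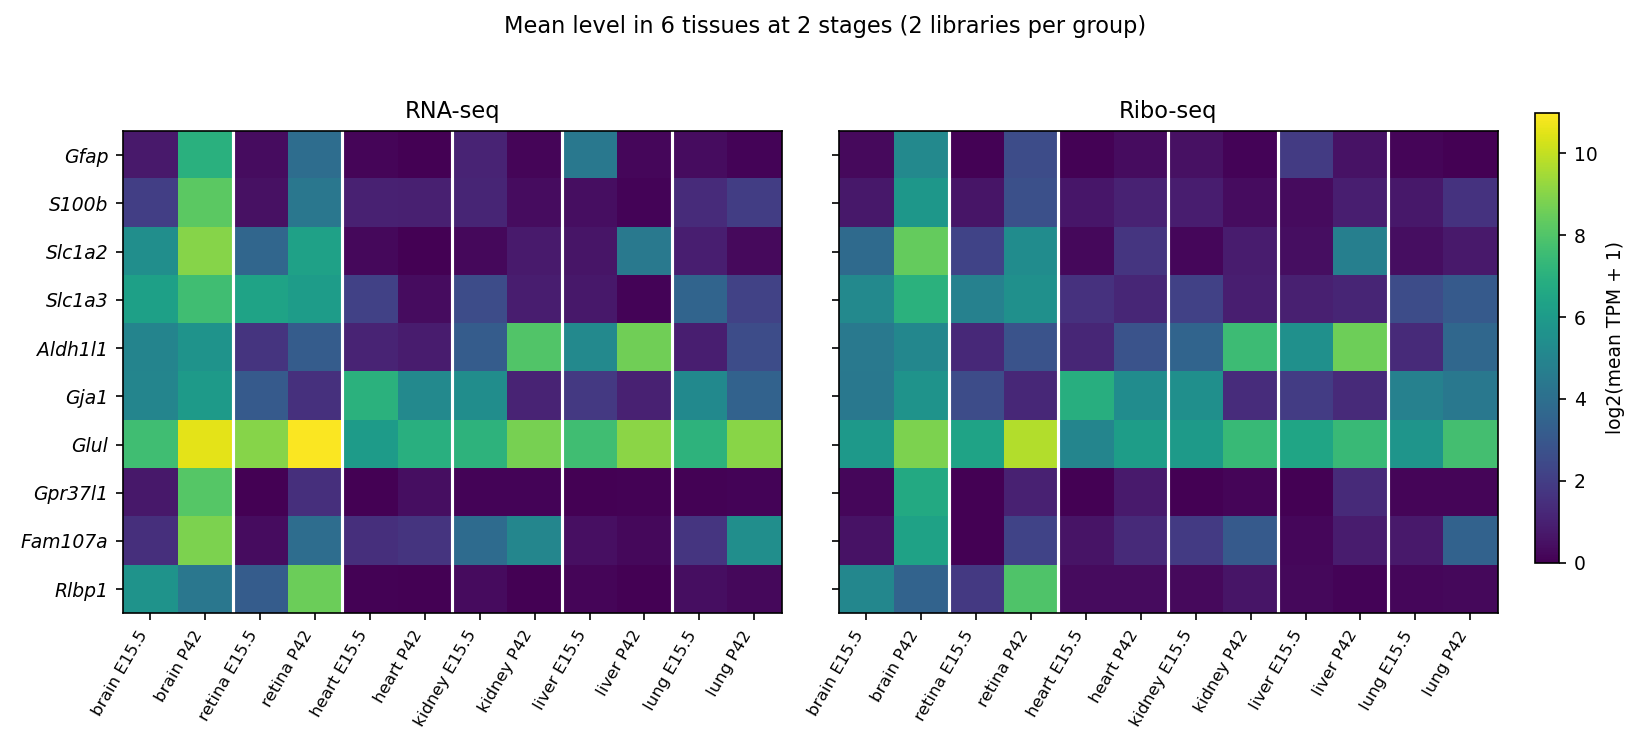
Log2(mean TPM + 1) of the 10 genes in 6 tissues at E15.5 and P42, by RNA-seq on the left and Ribo-seq on the right, dark for low and bright for high. Aldh1l1 is brightest in P42 liver (352 and 438 TPM by RNA-seq) and kidney (263 and 255 TPM), and Gfap in E15.5 liver (19.2 and 21.2 TPM) stands out from the other E15.5 tissues.

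Aldh1l1 was 352 and 438 TPM in P42 liver and 263 and 255 TPM in P42 kidney by RNA-seq, where folate metabolism is high, against 49.5 and 47.7 TPM in P42 brain. It rose with age in kidney (4.84 ± 0.18) and liver (3.46 ± 0.18), and footprints gave 4.00 ± 0.26 and 2.99 ± 0.26. Slc1a2 is known from the hepatocytes around the central vein, and in liver it went from 0.54 and 0.522 TPM at E15.5 to 21.9 and 19.1 TPM at P42 (3.81 ± 0.16). Its liver footprints at P42 were 21.9 and 29.8 TPM. Glul, held by the same hepatocytes, was 208 and 182 TPM in E15.5 liver and 582 and 518 TPM in P42 liver (1.49 ± 0.23).

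Gfap was at 19.2 and 21.2 TPM in E15.5 liver, above every other E15.5 tissue, of which the highest was kidney at 1.49 and 0.838 TPM. By P42 liver stood at 0.101 and 0.179 TPM, a fall of 4.22 ± 0.15 on the log2 scale (-4.22). Footprints of Gfap in liver were 2.87 and 2.71 TPM and then 0.238 and 0.688 TPM (-1.39 ± 0.13, and -0.95 and not called with median-of-ratios scaling). In P42 liver the footprint level of Gfap was 1.30% of that in P42 brain, beside 1.57% for S100b, 1.46% for Gpr37l1 and 0.968% for Fam107a, where the RNA-seq levels were 0.111%, 0.0257%, 0.0183% and 0.0377%. What brings brain-rich footprints to that level in liver was not tested. S100b stood at 0.356 and 0.33 TPM and Gpr37l1 at 0 and 0.0309 TPM in the same E15.5 liver RNA-seq libraries.

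Gja1, which couples heart muscle cells as well as astrocytes, read 130 and 126 TPM in E15.5 heart and 35.6 and 35.7 TPM in P42 heart. The difference of -1.82 ± 0.25 was called on the deposited scale and turned to 0.17 with median-of-ratios scaling. In kidney it fell from 51.9 and 30.9 TPM to 0.931 and 1.40 TPM (-4.25 ± 0.25), a direction kept under each scaling. Fam107a read 39.5 and 44.8 TPM in P42 lung and 22.9 and 40.4 TPM in P42 kidney. Its P42 lung footprints differed between replicates by 5.05 times, at 3.29 and 16.6 TPM. Without replicate 2 the stage difference there was 1.34 in place of 2.36, and it was not called when lung libraries were fitted alone. In kidney its RNA-seq difference of 1.17 ± 0.25 dropped under 1 without replicate 2 of E15.5 (0.85) or of P42 (0.78), and its footprint difference of 1.23 ± 0.40 without replicate 2 of P42 (0.94).

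Counts of members in these tissues have to be read against high backgrounds. By RNA-seq, Slc1a3 in heart and kidney, Slc1a2 and Gfap in liver and Aldh1l1 in lung had a mean under 1 TPM at 1 stage. Each passed the filter through the other stage and could be called only toward it. In heart 2 of 4 tested were called by RNA-seq, both lower, against 2.73% of genes higher and 74.6% lower. With median-of-ratios scaling the heart count was 3 higher and 0 lower. All-gene calls in heart were then 2750 higher and 1801 lower, in place of 349 and 9529. In kidney 3 of 5 rose and 2 fell, against 13.1% and 43.9%. In liver 3 of 5 rose and 1 fell, against 13.4% and 47.0%. In lung 3 of 6 rose and 2 fell, against 10.1% and 53.5%. With median-of-ratios scaling the lung count was 4 and 0. All-gene calls in lung were then 3463 higher and 2191 lower, in place of 1443 and 7647. Slc1a3 was lower at P42 in heart (-1.73), kidney (-1.66) and lung (-1.40). With median-of-ratios scaling it was not called in heart (-0.90) or lung (-0.28).

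By footprint, 3 of 5 members tested were higher and 1 lower in heart, against 10.2% and 50.6% of genes. In kidney 3 of 5 were higher and 2 lower, against 12.2% and 40.2%. In liver 2 of 6 were higher and 1 lower, against 10.2% and 44.0%. In lung 3 of 6 were higher and 0 lower, against 18.6% and 22.8%. By limma 4 of the 6 had an unadjusted p below 0.05, all higher at P42, but the share of all genes at that threshold was not counted. Slc1a2 in heart, Slc1a3 in kidney, Gfap, Slc1a2 and Slc1a3 in liver, and S100b and Fam107a in lung had a footprint mean under 1 TPM at 1 stage. Each passed the filter through the other stage and could be called only toward it.

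Markers of other organs were present in the P42 lung and heart footprints. In P42 lung the 8 kidney tubule genes summed to 1589 TPM in replicate 1 and 33.7 TPM in replicate 2 by Ribo-seq, against 4.35 and 2.58 TPM by RNA-seq and 3.41 and 3.45 TPM in E15.5 lung footprints. The 3 members called in lung are also expressed in P42 kidney, with mean footprints of 186 TPM for Aldh1l1, 169 TPM for Glul and 7.71 TPM for Fam107a. In P42 lung Aldh1l1 footprints were 14.7 TPM in replicate 1 and 8.98 TPM in replicate 2. Glul and Fam107a were higher in replicate 2. Without replicate 1 the lung changes were 2.00 for Aldh1l1, 2.33 for Glul and 3.38 for Fam107a, and all 3 were called. Without replicate 2 Fam107a changed by 1.34, also called.

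In P42 heart footprints the kidney tubule genes summed to 148 and 159 TPM, the 8 hepatocyte genes to 284 and 739 TPM and the 8 lung epithelium genes to 532 and 1675 TPM. The RNA-seq sums there were 0.146 and 0.241 TPM, 1.85 and 2.07 TPM, and 196 and 190 TPM. In E15.5 heart footprints the sums were 1.58 and 3.29 TPM, 197 and 136 TPM, and 215 and 191 TPM. Aldh1l1, called higher in heart by footprint (1.62), was 4.76 and 7.21 TPM by Ribo-seq and 0.679 and 0.86 TPM by RNA-seq in P42 heart. The part of these markers in the heart calls was not tested. In P42 heart, footprints of Slc1a2 were 3.18 and 1.35 TPM where RNA-seq listed 0.0241 and 0.0188 TPM. The heart footprint level was 0.670% of that in P42 brain for Slc1a2, 0.849% for Gfap, 0.742% for Gpr37l1, 1.95% for S100b and 1.85% for Fam107a. What brings brain-rich footprints to that level in heart was not tested.

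Ribosome loading per message was compared as the Ribo-seq minus RNA-seq difference, for genes with mean RNA-seq of at least 5 TPM in both groups. On the deposited scale none of 8 members tested was called between P42 brain and P42 retina, against 30.8% of 9632 genes. The members' median was -0.32 beside 0.70 for all genes. By limma, 0 of the 8 had an unadjusted p below 0.05. The share of all genes at an unadjusted threshold was not counted for any loading comparison. With median-of-ratios scaling 6 of the 8 were called lower in brain. Of all genes 514 were then called lower and 383 higher, with a median of -0.16. On the deposited scale 40 were lower and 2922 higher. Without replicate 2 of P42 retina Ribo-seq the S100b difference was -1.09. At E15.5, 0 of 5 were called, against 16.7%, and the median over all genes was 0.58 toward brain. By limma, 2 of the 5 had an unadjusted p below 0.05, Glul (0.94 ± 0.32) and Rlbp1 (0.75 ± 0.30), both higher in brain. Rlbp1 was called higher in brain there without replicate 2 of E15.5 retina RNA-seq (1.00) or replicate 2 of E15.5 brain Ribo-seq (1.20). From E15.5 to P42, Slc1a2 rose in loading in brain by 1.03 ± 0.28 (adjusted p = 0.0029), 1 of 6 tested against 29.9%, and Glul in retina by 1.42 ± 0.32 (adjusted p = 0.00267), 1 of 4 against 13.6%. The median gene rose as well, by 0.54 in brain and 0.39 in retina. An unadjusted limma p was below 0.05 for 1 of the 6 in brain and 3 of the 4 in retina, all higher at P42. The Slc1a2 value fell below 1 without replicate 1 of E15.5 brain RNA-seq (0.97), replicate 2 of P42 brain RNA-seq (0.94) or replicate 1 of P42 brain Ribo-seq (0.98), and was 0.40 with median-of-ratios scaling. The retina value of Glul was called under all alternatives tried, while without replicate 1 of E15.5 retina Ribo-seq Slc1a3 (1.24) and Rlbp1 (1.04) were called in retina too, and Rlbp1 without replicate 2 of E15.5 retina RNA-seq (1.06).

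Over the 12 tissue and stage groups each member's RNA-seq and Ribo-seq levels followed each other, with Pearson r from 0.949 (Glul) to 0.986 (Rlbp1) on log2(mean TPM + 1). Across the same 12 group means the 45 pairs of members correlated between -0.60 and 0.94 by RNA-seq, with a median of 0.49, highest for S100b with Gpr37l1 and lowest for Aldh1l1 with Gja1. Gja1 had a median of -0.01 with the other members and Aldh1l1 0.18. These are descriptions over groups that share stage and tissue, and the points are not independent.

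The genes outside the set whose RNA-seq pattern over the 12 groups was most like a member's were taken as the nearest 3 for each. For S100b they were Grin2a, Gabrd and Kcnk4 (r = 0.967, 0.966 and 0.965), and for Slc1a2 Gabbr2, Slc25a22 and Sprn (0.963, 0.958 and 0.955). Gpr37l1 was nearest to Egr4, Hapln2 and the myelin gene Mobp (0.997, 0.988 and 0.986), and Gfap to Bfsp2, Icam5 and Omg (0.886, 0.878 and 0.871). Slc1a3 was nearest to Gabbr1, Aplp1 and Sept5 (0.986, 0.986 and 0.982), Rlbp1 to Dscaml1, Grm8 and Wdr17 (0.996, 0.994 and 0.986), and Glul to Ciart, Rora and Ypel3 (0.929, 0.895 and 0.889). Aldh1l1, with its liver and kidney peak, was nearest to Aqp11, Gjb2 and Aspdh (0.957, 0.956 and 0.933), Gja1 to Gm11627, Samd4 and Ppp1r3d (0.896, 0.881 and 0.869) and Fam107a to Il34, Mal and Sytl2 (0.888, 0.872 and 0.867). Ribo-seq means gave r of 0.541 to 0.993 for these 30 pairs, lowest for Glul with Ypel3.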

How the data were processed

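The deposited tables hold TPM per gene for RNA-seq and Ribo-seq of 6 tissues at 2 stages, with 2 biological replicates per group per the series' design text. The 4 tables, 1 per stage and assay, have 12 libraries each. The submitters' processing notes name CASAVA 1.8.2, cutadapt 1.8.1, TopHat2 2.0.14, featureCounts 1.6.2 and GRCm38.p6, without their order or settings. How the authors computed TPM beyond that is not stated in those sources, and multimapped reads or reads of overlapping genes could shift single values. Exons of Slc1a2, Aldh1l1 and Glul overlap other annotated genes. Ensembl identifiers were matched without version to GENCODE M21, for 22029 of 22055 genes.

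Genes with at least 1 TPM in at least 2 of the 24 libraries of an assay, and a mean of at least 1 TPM over the libraries compared, entered a limma model (version 3.58.1, R 4.3.3, empirical Bayes with trend) of log2(TPM + 1), with 1 mean per tissue and stage and 12 residual degrees of freedom. Fold changes on that scale understate the change of low genes. Ribosome loading was fitted over all 48 libraries for genes with mean RNA-seq of at least 5 TPM. P-values were adjusted by Benjamini-Hochberg over all genes tested. Tables and figures used Python 3.11.15, pandas 2.3.3 and matplotlib 3.10.9. The fits were tested on simulated data.

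All 10 members are named. From other lists, up to 4 called genes with the widest differences per comparison are named by rule. Aqp4, Kcnj10, Gpr37, Rpe65 and Ttr, the last 2 as tissue markers, were chosen after their values were seen. Likeness was Pearson r over 12 group means, among genes reaching 10 TPM, and the nearest 3 are named. Members and lists were chosen with earlier results of these data known. Alternatives covered the pseudocount, filter, scaling, mitochondrial genes, variance model, library weights, replicate block and each library left out. The replicate numbers were not taken to pair the libraries: same-numbered libraries deviated together (correlation over 0.1) in 13 of 66 RNA-seq pairs of groups, 9 of 66 Ribo-seq pairs, and 6 of 12 groups between their RNA-seq and Ribo-seq libraries.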

Additional observations from a re-analysis of the deposited data

Results flagged for a closer look

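The change from E15.5 to P42 differed between brain and retina, by limma's test of the difference of changes, for 7 members in each assay. Values are the brain change minus the retina change on the log2 scale. By RNA-seq they were 2.68 for Gfap, 2.37 for S100b, 1.66 for Slc1a3, 2.55 for Gja1, 5.91 for Gpr37l1, 3.81 for Fam107a and -6.65 for Rlbp1. By Ribo-seq they were 2.44 for Gfap, 3.14 for S100b, 1.43 for Slc1a2, 2.61 for Gja1, 5.48 for Gpr37l1, 3.64 for Fam107a and -7.65 for Rlbp1. Gpr37l1 was listed at 0 in both E15.5 retina libraries of each assay. Gfap, S100b and Fam107a had E15.5 retina means under 1 TPM in both assays, so the size of their differences depends on the 1 TPM added. For Fam107a footprints the sign does too, since mean TPM rose 177-fold in brain and 292-fold in retina.

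Other tissues moved against brain, where both P42 libraries were above both E15.5 libraries, but the difference itself was not tested. By RNA-seq Slc1a3 changed by -1.73 in heart, -1.66 in kidney and -1.40 in lung, and Gfap by -4.22 in liver. By Ribo-seq Gja1 changed by -1.55 in heart and -4.06 in kidney, Slc1a3 by -1.21 in kidney and Gfap by -1.39 in liver. The median gene moved down there too, by RNA-seq -1.61 in heart, -0.81 in kidney, -1.11 in lung and -0.89 in liver. By Ribo-seq the medians were -1.01 in heart, -0.74 in kidney and -0.85 in liver. With median-of-ratios scaling, Slc1a3 in heart and lung RNA-seq and Gfap in liver Ribo-seq were not called. In heart and kidney Ribo-seq 1 member each lost its call under that scaling. The median gene there went to 0.11 in both tissues. Gja1 was the only member called lower in heart by footprint, and Slc1a3 had the smaller of the falls called in kidney. The heart fall of Gja1 and the kidney fall of Slc1a3 thus cannot be taken as independent of the scaling. The Gfap footprint level in P42 liver was 1.30% of that in P42 brain, where S100b, Gpr37l1 and Fam107a stood at 1.57%, 1.46% and 0.968%. Footprints of kidney, liver and lung marker genes were present in P42 heart. Their part in these values was not tested.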

How the results depend on the processing

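Of the recomputed counts of members called, 310 stayed within 1.5 times the reported count and 26 did not. With a pseudocount of 4 TPM the count fell to 1 from 2 in heart RNA-seq, 3 from 5 in lung RNA-seq, 5 from 8 in retina Ribo-seq, 2 from 4 in heart Ribo-seq and 3 from 5 in kidney Ribo-seq. A filter of 5 TPM gave 1 in heart RNA-seq, 3 in retina Ribo-seq and 2 in heart Ribo-seq. In liver Ribo-seq, median-of-ratios scaling and an equal sum of listed genes each gave 5 in place of 3. For ribosome loading of brain against retina at P42 the count of 0 became 2 with a pseudocount of 4 TPM, 6 with median-of-ratios scaling and 1 with an equal sum. The count of 1 for loading in brain became 0 under those 3 settings and with mitochondrial genes left out, and for loading in retina it became 2 with an equal sum. With single libraries left out, loading counts ranged from 0 to 2 for brain against retina at E15.5, 0 to 1 at P42, 0 to 1 in brain and 1 to 3 in retina. Of the members' differences, 1 reversed, Gja1 in heart RNA-seq (0.17 with median-of-ratios scaling), 39 recomputed values lost a call, 57 gained one and 2252 did neither. With the replicate block, all 22 counts and all 157 members' differences kept their call, and the P42 brain minus retina RNA-seq count was again 8 higher and 1 lower. The cause of these changes was not tested. The depth of the libraries is unknown, so what depth limits cannot be given, and members under about 1 TPM are compressed by the pseudocount. With 2 libraries per group, a single library can decide a value.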
